A study of Homo sapiens with 19 samples.

Results

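Collagens are the main structural proteins of the extracellular matrix, and each collagen molecule is a triple helix of 3 chains that are encoded by separate genes. The genes described here are all those whose name on the array has the form COL, a type number, A and a chain number. They were 41 of the 31033 gene names on the array and had 78 of its 50238 probes. RNA was measured in THP-1 cells, a human monocytic leukemia line that takes on a macrophage-like form with phorbol myristate acetate (PMA). All cells were differentiated with 30 nM PMA, and the flasks were then left untreated (UT, 0 mM vit C) or given 0.1 mM vit C. UT cells were harvested at 8, 24, 48 and 96 h and measured on 2, 3, 2 and 3 arrays, and vit C-treated cells on 3, 2, 2 and 2 arrays. The cultures were separate flasks of a single line according to the study's methods, so p-values measure the spread between flasks. All groups share the cell line and the PMA, and the line stands for macrophages only as far as a leukemia line can.

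Vit C (ascorbate) is the cofactor that keeps prolyl and lysyl hydroxylases active, the enzymes that hydroxylate collagen chains in the endoplasmic reticulum so that the triple helix is stable and can be cross-linked. Fibroblasts are the best known producers of fibrillar collagens, while macrophages are known to make some chains, type VI and type VIII among them. An array measures the RNA of a chain and neither its hydroxylation nor its secretion, and in a culture fewer cells of a kind and less RNA per cell cannot be told apart.

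Every probe is a stretch of 60 bases, and the files give no genome position for the member probes. The first 30 bases of some of them are shown, because the comparisons below turn on these probes. They are written as the files give them, in lower case.
COL24A1: aaattattataggccagctacatctagtag
COL16A1: tggatgaaagactccgttgggaataaatgg
COL6A1, bright probe: atagtgatgtgttcgacgttttatcaaagg
COL6A1, dim probe: cttcaccaagcgcttcatcgacaacctgag
COL27A1: gacaaagtttggggaatttttgaattttcc
The dim COL6A1 probe was the only one of the 78 that shared a run of 20 bases with the probe of another gene name, AI263220. 9 probes shared such a run with another probe of their own gene, and such probes are not independent readings.

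COL4A1 and COL4A2, the chains of the ubiquitous basement membrane network, lie head to head and are shown because both were called in the same comparison below. In RefSeq GRCh38.p14 the COL4A1 gene starts at position 110307157 of chromosome 13 on the minus strand and COL4A2 at 110307284 on the plus strand. The 126 bases between the starts, chr13:110307158-110307283, are given on the plus strand with the letters CCAAT and GGGCGG in capitals, searched on both strands.
COL4A1-COL4A2: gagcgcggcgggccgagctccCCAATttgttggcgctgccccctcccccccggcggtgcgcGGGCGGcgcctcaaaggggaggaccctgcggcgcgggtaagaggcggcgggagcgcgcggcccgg
The stretch holds each motif 1 time, and 80.2% of its bases are G or C. Promoters of 300 bases were found for 30 of the 41 members. GGGCGG was present in 17 of the 30 and in 44.6% of all 27305 promoters of the same length. CCAAT was present in 10 of the 30 and in 35.7% of all promoters. TATAAA was in 4 of the 30 (12% of all) and TGANTCA in 0 of the 30 (7.8% of all). A match describes letters only.

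A level below is the log2 of a probe's processed signal minus the 75th percentile of its array, so that 0 is the array's 75th percentile. A gene was taken as detected in a group when a probe was marked well above background on every array of it. Levels of different genes come from different probes and are not set against each other. Of the 41 collagen chain genes, 31 were detected in at least 1 group and 21 in all 8 groups. On each gene's brightest probe, 31 of the 41 and 23159 of all 31033 gene names were detected in at least 1 group, similar shares. The number per group was 27, 24, 25 and 26 without and 25, 28, 25 and 29 with vit C, in order of time. The highest, 29, was that of the vit C arrays of 96 h. On these arrays 69.8% and 72.8% of all probes were well above background, against 57.5% to 68.7% on the others. Detected were 7 of 11 fibrillar chains, 7 of 9 network-forming chains, all 3 chains of the type VI beaded filament, COL7A1 of the anchoring fibril, 9 of 10 FACIT chains (which sit on the surface of fibrils), 2 of 4 transmembrane chains and both multiplexins. The 10 that were detected in no group were COL1A2, COL2A1, COL3A1, COL5A1, COL4A3, COL4A6, COL21A1, COL17A1, COL25A1 and COL28A1. COL1A2, COL3A1 and COL2A1 encode chains of the main fibrils of skin, bone, vessel wall and cartilage. The 10 include COL1A2, the partner chain of COL1A1.

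**Figure D1:**
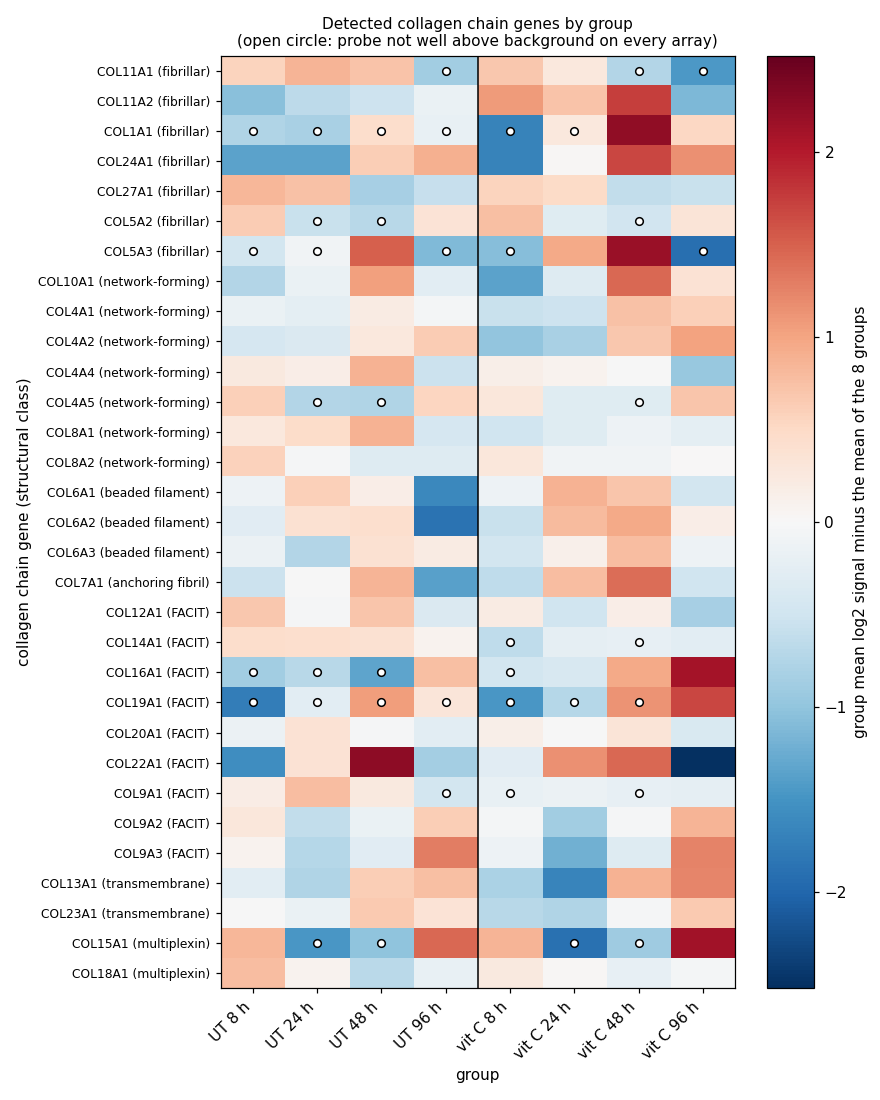
Group means of the 31 detected collagen chain genes in the 8 groups, as colour: log2 signal of the brightest probe minus the gene's mean over the groups, with genes in rows by structural class. An open circle marks a group in which that probe was not well above background on every array. COL22A1 had the widest range, 4.77 log2 units between its highest and lowest group, and COL20A1 the narrowest, 0.76.

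In PMA-differentiated THP-1 cells 13 of the 14 monocyte and macrophage markers on the array were detected in at least 1 group, and 12 in all 8 groups. ITGAM was called lower with vit C at 48 h (-1.17) and LYZ higher at 96 h (1.17). From 8 to 96 h AIF1, CD14 and CD163 were called higher and CD68 and ITGAX lower in both cultures, with LYZ and SPI1 also lower in UT cells and LAPTM5 lower with vit C. MRC1, the mannose receptor, was not well above background on any array. Of 14 markers of fibroblasts and other mesenchymal cells 11 were detected in at least 1 group and 6 in all 8, while TCF21, POSTN and ASPN were at background throughout. DCN and LUM rose with vit C at 48 and 96 h, and PDGFRB, a growth factor receptor, at 24 and 96 h. LUM (lumican, a proteoglycan of collagen fibrils) was not well above background on any of the 10 UT arrays, with group means of -7.33 to -6.72, and stood at -3.42 ± 0.23 (SD, n = 2) at 48 h and at -2.39 ± 0.03 (SD, n = 2) at 96 h with vit C. DCN (decorin, another such proteoglycan) stood at -1.29 ± 0.21 (SD, n = 2) in UT cells and 1.05 ± 0.08 (SD, n = 2) with vit C at 48 h, and at -0.29 ± 0.55 (SD, n = 3) and 2.19 ± 0.13 (SD, n = 2) at 96 h. PDGFRB stood at -1.94 ± 0.29 (SD, n = 3) in UT cells and -0.19 ± 0.05 (SD, n = 2) with vit C at 24 h, and at -3.05 ± 0.22 (SD, n = 3) and -1.75 ± 0.21 (SD, n = 2) at 96 h. FAP was called lower with vit C at 96 h. From 8 to 96 h DCN was called higher and TWIST1 lower in both cultures, PDGFRB lower in UT cells, and LUM higher and FAP and THY1 lower with vit C. The summed signal of the 14 markers, on the log2 scale, ranged from 6.99 to 7.69 over the UT arrays and from 6.78 to 7.88 over the vit C arrays, and at 96 h it was 7.57 to 7.69 without and 7.71 to 7.88 with vit C. S100A4 made up most of that sum, with means of 7.53 in UT cells and 7.71 with vit C at 96 h, so the sum does not show the other markers. The part of these markers in the collagen results was not tested. Of 5 endothelial markers 4 were detected in at least 1 group, PECAM1 and VWF in all 8 groups and KDR and TEK in vit C-treated cells at 96 h only, and CDH5 was never well above background. KDR and TEK stood near background there, at -5.02 and -5.08. The lowest level marked well above background was -5.73 and -6.07 on those 2 arrays and -5.48 to -4.36 on the others. From 8 to 96 h TEK was called higher in both cultures and VWF lower with vit C. Of 4 epithelial markers 3 were detected, KRT8 and KRT18 in all 8 groups, and CDH1 was never well above background.

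There were 4 slides. All UT arrays except replicates 2 and 3 at 96 h were on slide 1. Slide 2 held these 2 arrays and the vit C arrays of 8 and 24 h with replicate 1 of 48 h, slide 3 held replicate 2 of 48 h with vit C, and slide 4 held both vit C arrays of 96 h. No slide held UT and vit C arrays of 1 time point, so the slide bears on every comparison with vit C, and at 96 h treatment and slide cannot be told apart. The 75th percentile was 787.6 and 903.5 on slide 4 and between 290.2 and 625.6 on the other 17 arrays. UT cells of 96 h spanned slides 1 and 2, and the 31 detected members differed between these slides by a median of 0.35 log2 units. The largest of these differences was 1.29, with 1 member (COL19A1) over 1. Vit C-treated cells of 48 h spanned slides 2 and 3 with 1 array each, so slide and flask cannot be told apart there. In that group the brightest COL11A2 probe read -0.56 on slide 2 and 1.37 on slide 3, and the other members were not summarized.

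The first question is whether vit C changed the RNA of the chains at each time point. A gene was called at a change of at least 2-fold (1 log2 unit) with a Benjamini-Hochberg q of at most 0.05 in limma, and genes whose probes went opposite ways in a comparison were not tested in it. At 8 h 0 of 33 members tested were called by limma, where 0.322% of all genes tested were called higher and 0.227% lower. Without adjustment, 3 of the 33 had a 2-fold change with p up to 0.05, beside 7.04% of all genes (3, 6 and 13 members at 24, 48 and 96 h, beside 8.53%, 9.65% and 18.7%), and the methods' t-test with adjustment gave 0. At 24 h 1 of 30 was called higher and 0 lower (0.835% and 0.82% of all genes). At 48 h 2 of 32 were called higher and 0 lower (2.08% and 1.56%). At 96 h 2 of 35 were called higher and 7 lower (2.72% and 10.1%), and of the 7 lower only COL22A1 was detected. Over the 4 time points on average 1 of 35 was called higher and 0 lower (2.05% and 1.41%). The median difference over detected members was -0.31, -0.12, 0.35 and 0.24 log2 units at 8, 24, 48 and 96 h, beside -0.09, -0.01, -0.07 and -0.05 over all detected genes. With normexp background correction the medians of the members were -0.09 at 8 h and -0.06 at 96 h, beside -0.02 and -0.22 over all detected genes, and at 96 h the median of all probes went from -0.14 to -0.45.

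COL24A1 encodes a fibrillar chain, known from developing bone and cornea. In UT cells its level was -3.76 and -3.57 at 8 h, -3.50, -3.72 and -3.78 at 24 h, -1.92 and -1.48 at 48 h, and -1.11, -1.70 and -1.44 at 96 h. In vit C-treated cells it was -4.19, -3.79 and -4.00 at 8 h, -2.54 and -2.03 at 24 h, -0.69 and -0.57 at 48 h, and -1.14 and -1.17 at 96 h. Both courses ended above their 8 h level, that with vit C after a peak at 48 h. The vit C arrays lay below both UT arrays at 8 h and above all UT arrays of their time at 24 and at 48 h. At 96 h the groups overlapped. COL24A1 rose with vit C by 1.38 log2 units (SE 0.23, limma q = 0.00934) at 24 h and by 1.07 (SE 0.25, limma q = 0.0301) at 48 h. The difference was -0.33 (SE 0.23, limma q = 0.614) at 8 h and 0.26 (SE 0.23, limma q = 0.495) at 96 h. The 4 effects of vit C on COL24A1 differed at the threshold (F test on 3 degrees of freedom in limma, q = 0.0482, where 1.05% of all genes passed), but not with the slide as a random block (q = 0.0536) or with a replicate block (q = 0.132). With the slide as a block the differences were 1.84 (q = 0.126) and 1.47 (q = 0.21) and neither was called. With normexp correction the difference at 24 h was 0.39 (q = 0.304). The call at 24 h was lost without replicate 2 of vit C, and that at 48 h without any 1 of the 4 arrays.

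COL16A1 encodes a FACIT chain found at the surface of fibrils and near basement membranes. In UT cells it stood at -5.58 and -4.76 at 8 h, -5.15, -5.36 and -4.48 at 24 h, -5.25 and -6.01 at 48 h, and -3.86, -2.71 and -4.03 at 96 h. In vit C-treated cells it stood at -4.49, -4.81 and -4.97 at 8 h, -4.16 and -5.24 at 24 h, -3.75 and -2.93 at 48 h, and -2.27 and -2.13 at 96 h. The highest levels were those of the 96 h arrays with vit C, and the groups did not overlap at 48 and 96 h. At 48 h no UT array was well above background and both vit C arrays were, and the vit C mean exceeded UT at least 2.39-fold (limma q = 0.0219, measured means -3.34 and -5.63). This bound sets the bright group's mean against the higher of the dim probe's own signal and the lowest signal of any probe well above background on the same array. At 96 h all 5 arrays were well above background and the difference was 1.33 (SE 0.45, limma q = 0.0621), which missed the threshold. The fitted average over the 4 time points was called (1.08, SE 0.23, limma q = 0.00754), but only 4 of 10 UT arrays and 7 of 9 vit C arrays were well above background, so it is no measured fold. It was not called with normexp correction (0.21, q = 0.152), with the floor of 20 (0.66, q = 0.0242) or over 8, 24 and 48 h (1.00, q = 0.0309). Without any of UT 8 h replicate 1, UT 48 h replicate 2, vit C 24 h replicate 1 or vit C 48 h replicate 2 the average was no longer called. The difference at 48 h was not called without either UT array or without replicate 2 of vit C, nor with the slide as a block (1.38, q = 0.74), and with normexp correction it was 0.39.

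COL8A1 encodes a short network-forming chain known from vessel walls and the cornea. It stood at -3.13 and -2.84 in UT cells and -4.00, -3.60 and -3.67 with vit C at 8 h. At 24 h the levels were -2.80, -2.72 and -2.87 without and -3.63 and -3.49 with vit C, and at 48 h -2.34 and -2.40 without and -3.59 and -3.20 with vit C. At 96 h they were -3.26, -3.26 and -4.51 without and -3.47 and -3.52 with vit C. The vit C arrays of COL8A1 lay below all UT arrays of their time at 8, 24 and 48 h, and the groups overlapped at 96 h. None of these differences was called: they were -0.77 (q = 0.309), -0.76 (q = 0.232), -1.02 (SE 0.34, q = 0.123) and 0.18 (q = 0.74) log2 units in limma. The average of -0.59 (SE 0.16, limma q = 0.0246) was under 2-fold.

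**Figure D2:**
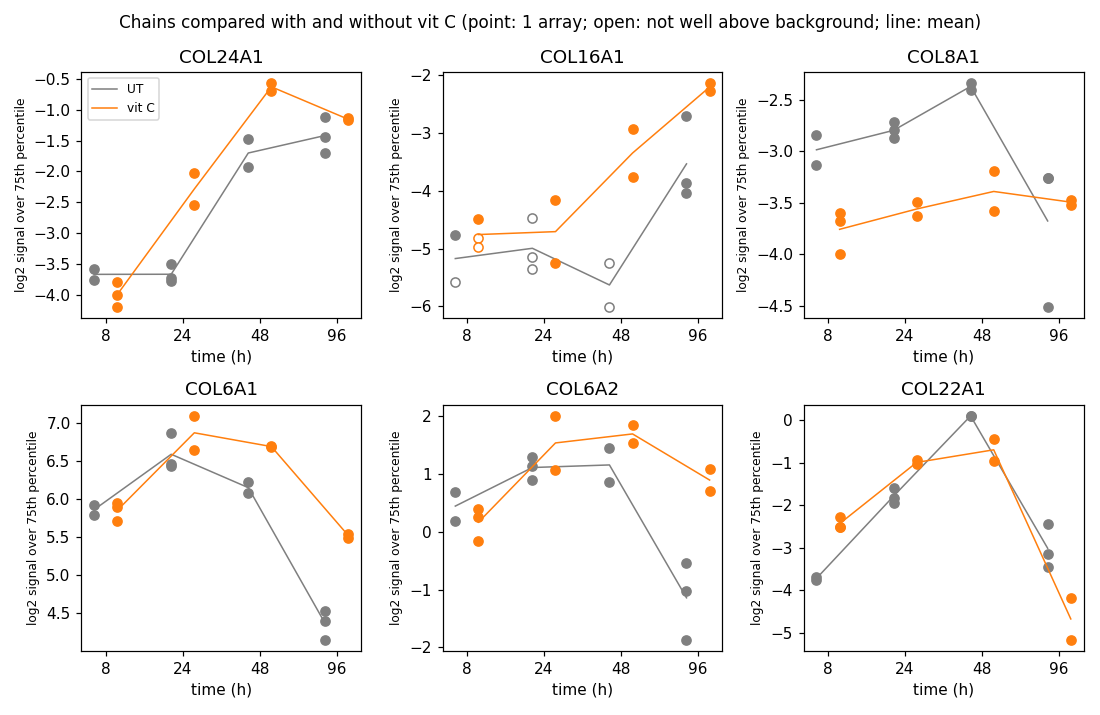
Levels of 6 collagen chain genes (y axis, log2 signal over the array's 75th percentile) against time in h (x axis, not to scale), 1 point per array, filled where the probe was well above background, with lines through group means. COL6A1, COL6A2 and COL22A1 had separate UT and vit C arrays at 96 h, and COL24A1 at 24 and 48 h.

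COL6A1 and COL6A2 encode chains of type VI collagen, the beaded filament around cells, in which they pair with COL6A3. In UT cells the bright probe of COL6A1 read 5.93 and 5.80 at 8 h, 6.88, 6.44 and 6.47 at 24 h, 6.23 and 6.08 at 48 h, and 4.40, 4.54 and 4.15 at 96 h. With vit C it read 5.72, 5.95 and 5.90 at 8 h, 7.10 and 6.65 at 24 h, 6.69 and 6.71 at 48 h, and 5.55 and 5.50 at 96 h. The 3 UT arrays of 96 h were the lowest of all 19 arrays. COL6A1 was higher with vit C at 96 h by 1.16 log2 units (SE 0.20, limma q = 0.00397), and the difference was 0.28 (q = 0.424) at 24 h and 0.54 (q = 0.222) at 48 h. At 8 h its probes went opposite ways, with -0.01 on the bright one. The dim COL6A1 probe read -2.50, -4.18 and -5.48 in UT cells and -2.85 and -3.18 with vit C at 96 h, groups that overlapped.

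COL6A2 read 0.69 and 0.19 in UT cells and 0.26, -0.16 and 0.39 with vit C at 8 h, and 1.44 and 0.86 against 1.53 and 1.85 at 48 h. At 96 h it read -1.02, -0.54 and -1.87 in UT cells and 0.69 and 1.09 with vit C. COL6A2 was higher with vit C at 96 h by 2.03 log2 units (SE 0.37, limma q = 0.00563) on the brightest probe and by 1.61 (SE 0.45, limma q = 0.037) on the other. COL6A3, the partner chain, stood at -2.22, -2.69 and -2.52 in UT cells and -2.89 and -2.71 with vit C at 96 h, and was not called. In UT cells COL6A1 was 2.83-fold lower at 96 h than at 8 h (SE 0.20 log2 units, limma q = 7.67e-05) and COL6A2 fell by 1.58 log2 units (SE 0.37, limma q = 0.00682), which rests on the same 3 UT arrays as the difference at 96 h. The call of COL6A1 was lost without UT 96 h replicate 3, since its probes then went opposite ways. Its log2 difference on the bright probe stayed at -1.59 to -1.40 over the arrays left out. The call of COL6A2 was lost without UT 8 h replicate 1, with a range of -1.88 to -1.22. With the slide as a block COL6A2 was not called (-1.46, q = 0.105), and COL6A1 (-1.46 on the bright probe) was not tested because its probes went opposite ways. From 8 to 96 h with vit C neither gene was tested, because their probes went opposite ways. The calls at 96 h with vit C held with quantile normalization, normexp correction, the percentile over detected probes, the floor, dim probes left out and the series matrix values, and both were lost with the methods' t-test after adjustment, which called 0 members at 96 h. Leaving out vit C 96 h replicate 1 ended the call of COL6A1, and leaving out replicate 2 that of COL6A2, with ranges over the arrays left out of 1.05 to 1.25 and 1.67 to 2.33. Both F tests of a difference between time points missed the threshold (limma q = 0.143 and 0.13).

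COL22A1 encodes a FACIT chain known from tissue junctions such as that of muscle and tendon. In UT cells it stood at -3.76 and -3.68 at 8 h, -1.95, -1.59 and -1.82 at 24 h, 0.10 and 0.10 at 48 h, and -2.43, -3.15 and -3.45 at 96 h. With vit C it stood at -2.52, -2.51 and -2.27 at 8 h, -1.04 and -0.95 at 24 h, -0.44 and -0.95 at 48 h, and -4.19 and -5.16 at 96 h. Both courses peaked at 48 h, and the groups of COL22A1 did not overlap at any time point, with vit C above UT at 8 and 24 h and below it at 48 and 96 h. COL22A1 fell with vit C by 1.66 log2 units (SE 0.31, limma q = 0.0062) at 96 h. The differences of 1.29 (SE 0.31, limma q = 0.0836), 0.79 (q = 0.212) and -0.80 (q = 0.247) at 8, 24 and 48 h were not called. The 4 effects differed (F test in limma, q = 0.0101). Without vit C 96 h replicate 2 the difference at 96 h was -1.17 and not called.

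**Figure D3:**
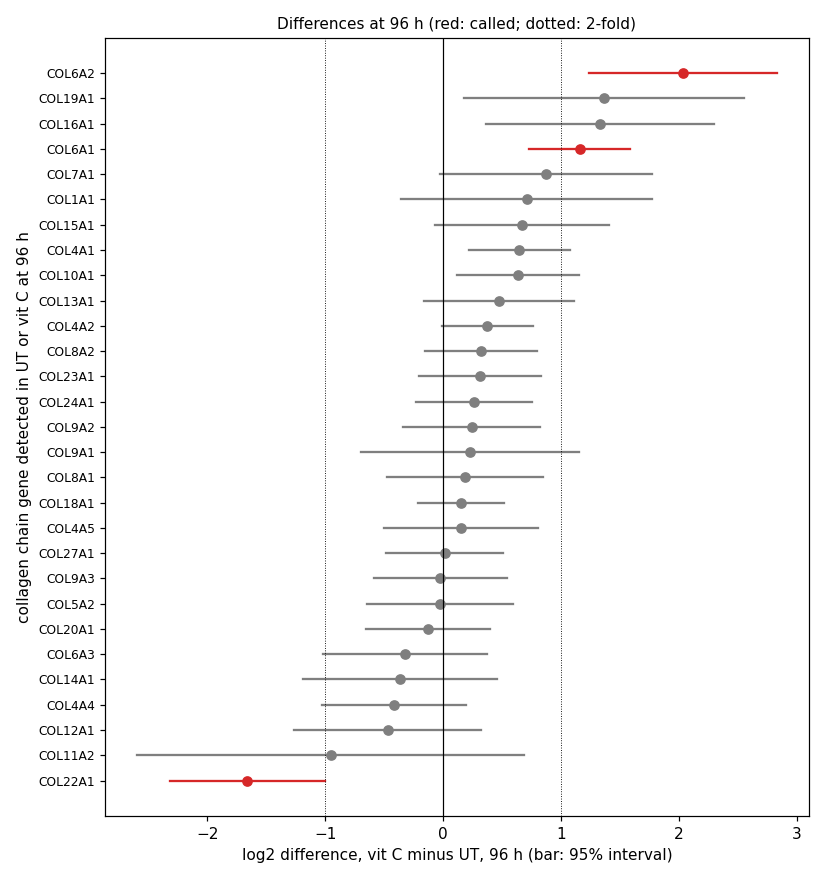
Difference between vit C-treated and UT cells at 96 h (x axis, log2 units, vit C minus UT, with 95% intervals from limma) for the 29 members detected in either group (y axis), called genes in red. 20 of the 29 lay above 0 and 9 below, where 45.7% of all detected genes lay above 0, and with normexp correction 14 lay above and 15 below. COL6A2, COL6A1 and COL22A1 were called.

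The other 6 members called lower at 96 h were COL17A1, COL21A1, COL25A1, COL28A1, COL3A1 and COL4A6, all among the 10 that were not detected. Except for 1 COL25A1 probe on 1 UT array, none of the called probes was well above background on any of the 5 arrays, and no fold is given for them. Before scaling, the median signal of the 10 undetected members was 3.39 to 4.29 on the UT arrays and 2.98 to 4.54 on the vit C arrays of 96 h, where the 75th percentile was also highest. With a floor of 20 each of these 6 differences was 0, and with quantile normalization they were -1.29 to -0.08 and none was called. The split of members called higher and lower at 96 h, 2 and 7, was 2 and 1 with quantile normalization or dim probes left out, 2 and 2 with normexp correction or the percentile over detected probes, and 3 and 1 with the floor. Without vit C replicate 1 or 2 at 96 h the count of 9 was 2 or 1, and without UT replicate 2 or 3 at 96 h it was 5 or 14. Among detected genes 2 of 25 members were called higher and 1 lower, beside 3.66% and 2.35% of all detected genes.

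The second question is how the chains changed over the 4 days in each culture. In UT cells 6 of 33 members tested were called higher at 96 h than at 8 h and 4 lower (8.9% and 7.18% of all genes), and among detected genes 5 and 4 of 25 (11.5% and 9.61%). In vit C-treated cells 11 of 33 were called higher and 11 lower (10.9% and 18%), and among detected genes 11 and 5 of 24 (14.6% and 11.7%). With vit C the 96 h arrays were all on slide 4 and the 8 h arrays all on slide 2, so that time and slide cannot be told apart. In UT cells replicate 1 of 96 h shares slide 1 with both 8 h arrays, and the difference within slide 1 is given for genes called in UT cells, apart from COL19A1, which was at background at 8 h. Of the 10 UT calls, 6 on the brightest probe were lost without UT 8 h replicate 1 alone (COL11A1, COL13A1, COL16A1, COL19A1, COL6A2 and COL9A3), and the count was then 7. The median change over detected members was -0.08 log2 units in UT cells and 0.35 with vit C, beside -0.07 and -0.01 over all detected genes. With normexp correction it was 0.03 and -0.20, beside -0.01 and -0.28. The members called higher and lower were 1 and 4 in UT cells and 4 and 4 with vit C under normexp correction, and 4 and 3, and 9 and 3, with the floor. With the slide as a block, which for UT cells rests on slide 1, the calls of COL24A1, COL27A1, COL4A2 and COL19A1 on their brightest probe were kept and those of the other 6 members were not (limma q = 0.000165, 0.00984, 0.0166 and 0.0189).

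COL24A1 rose from 8 to 96 h by 2.25 log2 units (SE 0.23, limma q = 6.92e-06) in UT cells and by 2.84 (SE 0.23, limma q = 5.81e-07) with vit C, and by 2.56 within slide 1. COL16A1 was called higher at 96 h in both cultures, with fitted differences of 1.64 (SE 0.45, limma q = 0.018) in UT cells, 1.31 within slide 1, and 2.55 (SE 0.45, limma q = 0.000743) with vit C. These depend on signals near background, since 1 of 2 UT and 1 of 3 vit C arrays of 8 h were well above it. The COL16A1 call in UT cells was lost with the slide as a block (q = 0.219) and without UT 8 h replicate 1 or UT 96 h replicate 2.

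COL4A2 and COL4A1 are the head to head pair shown above. COL4A2 stood at 2.03 and 1.91 at 8 h and 3.03, 2.81 and 3.28 at 96 h in UT cells, and at 1.47, 1.19 and 1.52 and then 3.40 and 3.43 with vit C. It rose by 1.07 log2 units (SE 0.18, limma q = 0.000553) in UT cells, 1.07 within slide 1, and by 2.02 (SE 0.18, limma q = 1.41e-06) with vit C. Without UT 96 h replicate 3 the UT difference was 0.95 and not called. COL4A1 stood at -1.04 and -1.06 at 8 h and -0.70, -1.29 and -0.83 at 96 h in UT cells, groups that overlapped, and at -1.29, -1.59 and -1.47 and then -0.24 and -0.34 with vit C. It rose by 1.16 (SE 0.20, limma q = 0.000601) with vit C, and its second probe was at or near background. With vit C the group means at 8, 24, 48 and 96 h were 1.39, 1.57, 3.08 and 3.42 for COL4A2 and -1.45, -1.42, -0.15 and -0.29 for COL4A1. For neither did the effect of vit C differ between time points at the threshold (F test in limma, q = 0.0917 and 0.122). Of the other type IV chains COL4A4, a chain of the kidney and lung network, stood at -2.89 and -3.14 and then -3.56, -4.02 and -3.80 in UT cells. With vit C it went from -3.27, -2.88 and -3.17 to -4.29 and -4.13, and was 2.15-fold lower at 96 h (SE 0.29 log2 units, limma q = 0.0102), a call lost without vit C 8 h replicate 2 or vit C 96 h replicate 1.

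**Figure D4:**
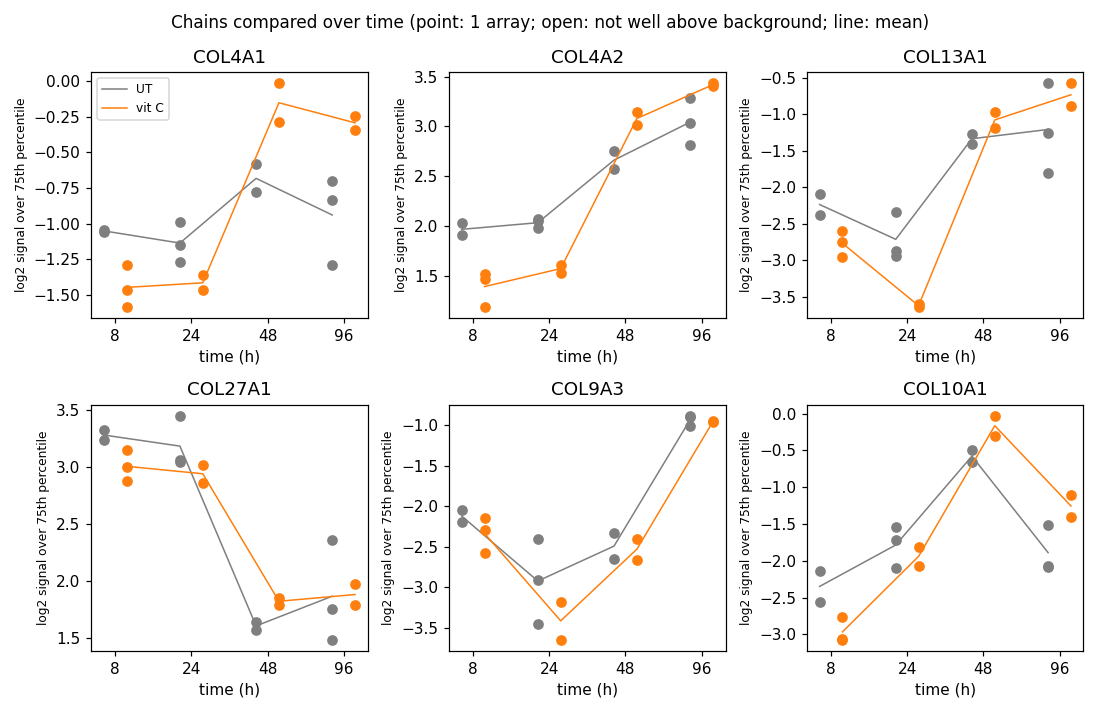
Levels of 6 collagen chain genes that were called between 8 and 96 h (y axis, log2 signal over the array's 75th percentile) against time in h (x axis, not to scale), 1 point per array, with lines through group means. COL4A2, COL4A1, COL13A1 and COL9A3 ended higher with vit C than at 8 h, and COL27A1 ended lower in both cultures.

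COL27A1 encodes a fibrillar chain known from cartilage. It stood at 3.24 and 3.32 at 8 h and 1.76, 1.49 and 2.36 at 96 h in UT cells, and at 2.87, 3.14 and 3.00 and then 1.98 and 1.79 with vit C. On this brightest probe the level went down between 24 and 48 h in both cultures, and the arrays of 8 and 96 h did not overlap. There COL27A1 fell by 1.41 log2 units (SE 0.23, limma q = 0.000486) in UT cells, 1.52 lower within slide 1 (log2 difference -1.52), and by 1.12 (SE 0.23, limma q = 0.0024) with vit C. A second probe, well above background on every array, fell by less than 2-fold from 8 to 96 h in both cultures. Its group means at 8, 24, 48 and 96 h were -0.40, -0.36, -0.96 and -0.95 in UT cells. With vit C they were -0.47, -0.54, -0.48 and -1.40, so that it did not go down between 24 and 48 h.

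COL11A1, another fibrillar chain of cartilage, stood at -3.93 and -3.71 at 8 h and -5.14, -5.57 and -5.05 at 96 h in UT cells, and at -3.42, -3.44 and -4.26 and then -5.38 and -6.30 with vit C. At 96 h only 1 of 3 UT and 1 of 2 vit C arrays was well above background. COL11A1 was called lower in both cultures, with fitted differences of -1.43 (SE 0.37, limma q = 0.0114) in UT cells and -2.13 (SE 0.37, limma q = 0.000572) with vit C that depend on signals near background. It was not called in UT cells with the slide as a block (-1.32, q = 0.139) or without either 8 h array. COL12A1, a FACIT chain of tendon and dermis, went from -2.88, -3.38 and -3.37 to -4.35 and -4.18 with vit C and fell by 1.05 (SE 0.37, limma q = 0.0387), a call that was lost without any 1 of the 5 arrays.

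The transmembrane chain COL13A1, known from the neuromuscular junction, stood at -2.39 and -2.09 at 8 h and -1.80, -1.25 and -0.57 at 96 h in UT cells, and at -2.60, -2.75 and -2.96 and then -0.57 and -0.89 with vit C. Its lowest levels were at 24 h with vit C, -3.61 and -3.64. COL13A1 rose by 1.03 (SE 0.30, limma q = 0.0232) in UT cells, which was 0.44 within slide 1 (q = 0.476 with the slide as a block) and was lost without UT 8 h replicate 1 or 2 or UT 96 h replicate 3, and by 2.04 (SE 0.30, limma q = 0.000149) with vit C. Its second probe rose in both cultures too, by 1.23 and 2.23. COL23A1, another transmembrane chain, went from 0.25, 0.24 and 0.60 to 1.75 and 1.70 with vit C and rose by 1.36 (SE 0.24, limma q = 0.000738). In UT cells COL23A1 stood at 0.97 and 1.13 and then 1.63, 1.67 and 0.93, groups that overlapped.

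COL9A3, a FACIT chain of cartilage, stood at -2.19 and -2.05 at 8 h and -1.02, -0.89 and -0.90 at 96 h in UT cells, and at -2.57, -2.15 and -2.29 and then -0.96 and -0.95 with vit C. All 96 h arrays of COL9A3 lay above all 8 h arrays, and the 2 vit C arrays of 96 h lay within the range of the UT arrays. COL9A3 rose by 1.19 (SE 0.26, limma q = 0.0048) in UT cells, 1.11 within slide 1 (q = 0.0827 with the slide as a block), and by 1.38 (SE 0.26, limma q = 0.00138) with vit C. The UT call was lost without UT 8 h replicate 1. COL10A1, the network-forming chain of hypertrophic cartilage, went from -3.07, -3.06 and -2.77 to -1.11 and -1.40 with vit C and rose by 1.71 (SE 0.24, limma q = 0.000111), after a peak of -0.03 and -0.30 at 48 h. In UT cells COL10A1 stood at -2.57 and -2.13 and then -2.09, -2.07 and -1.51.

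COL15A1, a multiplexin of basement membrane zones, had a course in which 8 and 96 h were above background and 24 and 48 h were not. It stood at -4.39 and -4.60 and then -4.11, -4.33 and -3.21 in UT cells, and at -4.41, -4.28 and -4.72 and then -3.34 and -3.09 with vit C. COL15A1 rose by 1.26 (SE 0.34, limma q = 0.0131) with vit C, a call lost without vit C 96 h replicate 2. At 24 and 48 h its levels were between -7.29 and -5.75 in both cultures, with no array of the 9 well above background.

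COL19A1, a FACIT chain of basement membrane zones, was detected in 1 group only. It stood at -7.60 and -6.96 at 8 h and -4.37, -5.70 and -5.62 at 96 h in UT cells, with 1 array of the 5 well above background, and at -6.95, -6.81 and -7.23 and then -3.88 and -3.85 with vit C. By 96 h with vit C, COL19A1 had risen at least 2.11-fold (limma q = 0.000724). In UT cells it was called higher by limma (q = 0.0158), a call lost without UT 8 h replicate 1 or UT 96 h replicate 1, and the same bound gives no fold. COL1A1, a chain of the main fibrillar collagen, stood at -7.14, -6.02 and -7.17 at 8 h, -3.47 and -2.27 at 48 h and -4.66 and -4.51 at 96 h with vit C, and at -5.68 and -6.03, -4.98 and -4.32, and -4.71, -4.84 and -6.33 in UT cells. No UT array of COL1A1 was well above background on that probe. From 8 to 96 h with vit C it rose at least 1.28-fold (limma q = 0.00457), and at 48 h the vit C arrays lay above both UT arrays, with a bound of at least 3.18-fold that was not called (limma q = 0.0939). With normexp correction the differences of COL19A1 and COL1A1 from 8 to 96 h with vit C were -0.03 and -0.30. The 6 other members called lower with vit C were undetected (COL1A2, COL3A1, COL4A6, COL17A1, COL21A1 and COL28A1), and with the floor of 20 each difference was 0. COL22A1 fell by 2.24 (SE 0.31, limma q = 8.64e-05) from 8 to 96 h with vit C.

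The remaining 12 detected members, COL8A1 apart, were called in no comparison, though some were not tested in all of them because of opposing probes, and are given by group means at 8, 24, 48 and 96 h. COL7A1, the anchoring fibril of skin, stood at 0.61, 1.15, 2.02 and -0.22 in UT cells and 0.51, 1.93, 2.56 and 0.65 with vit C, with SDs of 0.05 to 1.05. COL5A3, a minor fibrillar chain, stood at -5.02, -4.64, -3.04 and -5.65 in UT cells and -5.62, -3.59, -2.36 and -6.46 with vit C, with SDs of 0.05 to 1.63. Both peaked at 48 h in both cultures, and COL5A3 was detected in 3 groups. COL18A1, the source of endostatin, stood at 0.86, 0.16, -0.61 and -0.12 in UT cells and 0.32, 0.10, -0.14 and 0.03 with vit C, with SDs of 0.02 to 0.19. COL8A2 stood at 0.80, 0.19, -0.09 and -0.10 in UT cells and 0.51, 0.13, 0.13 and 0.22 with vit C, with SDs of 0.05 to 0.31. On these probes the highest group mean of each was that of UT cells at 8 h. A second COL18A1 probe, well above background on every array, had another course. It stood at -2.76, -2.79, -2.95 and -3.56 in UT cells and -2.92, -2.74, -2.69 and -3.35 with vit C.

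COL9A2 stood at 3.74, 2.83, 3.29 and 4.08 in UT cells and 3.40, 2.57, 3.43 and 4.32 with vit C. COL5A2 stood at -3.09, -4.29, -4.43 and -3.38 in UT cells and -2.97, -4.04, -4.21 and -3.40 with vit C. COL4A5 stood at -3.16, -4.50, -4.53 and -3.22 in UT cells and -3.49, -4.07, -4.08 and -3.07 with vit C. On their brightest probes these 3 dipped at 24 h or at 24 and 48 h in both cultures and came back at 96 h, with SDs of at most 0.48. A second COL4A5 probe, not well above background on every array, did not follow that course. It stood at -3.73, -3.88, -4.35 and -4.38 in UT cells and -4.26, -4.04, -3.86 and -4.34 with vit C. COL6A3 stood at -2.83, -3.42, -2.29 and -2.48 in UT cells and -3.14, -2.54, -1.90 and -2.80 with vit C, with SDs of 0.01 to 0.70. COL14A1 stood at -3.55, -3.57, -3.62 and -3.90 in UT cells and -4.63, -4.22, -4.20 and -4.27 with vit C, with SDs of 0.03 to 0.87. COL14A1 was lower with vit C in the means of all 4 time points, and none of the differences was called. Those at 8 and 48 h depend on signals near background, since 1 of 3 and 1 of 2 vit C arrays were well above it. COL20A1 stood at -3.28, -2.76, -3.16 and -3.39 in UT cells and -2.97, -3.14, -2.81 and -3.52 with vit C, with SDs of 0.04 to 0.46. COL9A1 stood at -4.05, -3.47, -3.99 and -4.70 in UT cells and -4.43, -4.38, -4.45 and -4.47 with vit C, with SDs of 0.16 to 0.81. COL11A2 stood at -2.38, -2.01, -1.86 and -1.51 in UT cells and -0.27, -0.62, 0.41 and -2.46 with vit C on its brightest probe, with SDs of 0.31 to 1.53. At 8 h the brightest probe of COL11A2 read 2.11 higher with vit C and the differences on the other 3 were -0.32 to -0.10, and at 24, 48 h and over time the probes were split as well. The gene was tested only at 96 h, where all 4 probes were lower and none was called.

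Prolyl and lysyl hydroxylases, the enzymes that vit C serves, belong to a wider list of genes that modify and process collagen chains. Of 32 genes for collagen modification and processing on the array, 29 were detected in at least 1 group. With vit C against UT, 0, 0, 1 and 2 were called higher at 8, 24, 48 and 96 h and 0, 1, 1 and 4 lower, of 25, 27, 28 and 27 tested, where 0.322%, 0.835%, 2.08% and 2.72% of all genes were called higher and 0.227%, 0.82%, 1.56% and 10.1% lower. TLL1 and TLL2, 2 of the 4 called lower at 96 h, were detected in no group. LOXL4, a lysyl oxidase that cross-links collagen, fell with vit C by 1.09 log2 units (SE 0.19, limma q = 0.0136) at 24 h and by 2.62 (SE 0.21, limma q = 3.45e-05) at 48 h. LOXL2, another of these enzymes, rose by 1.40 (SE 0.31, limma q = 0.0248) at 48 h. LEPREL1, a prolyl 3-hydroxylase, fell by 1.27 (SE 0.19, limma q = 0.00132) at 96 h. PLOD2, the lysyl hydroxylase of collagen telopeptides, was called higher at 96 h on a second probe by 1.19, with 0.69 (q = 0.102) on its brightest.

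From 8 to 96 h 5 of 29 of these genes were called higher and 2 lower in UT cells, and 6 and 7 of 29 with vit C, beside 8.9% and 7.18%, and 10.9% and 18%, of all genes. PLOD2 rose in both cultures, by 2.42 (SE 0.27, limma q = 1.57e-05) in UT cells and 3.57 (SE 0.27, limma q = 3.19e-07) with vit C. P4HA1, a catalytic subunit of prolyl 4-hydroxylase, rose by 1.61 (SE 0.28, limma q = 0.000668) and P4HA3 fell by 1.67 (SE 0.24, limma q = 0.000145) with vit C. PLOD3, another lysyl hydroxylase, fell by 1.07 (SE 0.27, limma q = 0.00957), and P4HB, the other subunit of prolyl 4-hydroxylase, was called lower on a second probe (-1.19), both with vit C. Of the 11 collagen receptors, all detected in at least 1 group, 7, 10, 9 and 9 were tested for vit C at 8, 24, 48 and 96 h, with the same shares of all genes called. By limma 0 were called higher, and 0, 2 (DDR1 and ITGA2), 0 and 1 (ITGA10) lower. ITGA2, the integrin subunit that binds fibrillar collagen, fell by 1.48 (SE 0.24, limma q = 0.00822) at 24 h. From 8 to 96 h ITGA1 and OSCAR were called higher and DDR2 (on a probe other than its brightest) and ITGA11 lower of 10 receptors tested in UT cells, and ITGA1 higher and ITGA2, ITGA10 and ITGA11 lower of 7 with vit C. ITGA1, the subunit that prefers type IV collagen, rose from 8 to 96 h by 2.91 (SE 0.33, limma q = 1.64e-05) in UT cells and 3.62 (SE 0.33, limma q = 1.67e-06) with vit C.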

How the data were processed

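THP-1 cells with or without vit C were measured on 19 one-colour arrays, whose samples were kept for an RNA integrity limit given in the study's methods. The authors deposited spot intensities from Agilent Feature Extraction, version 10.5.1.1 per the file headers, with detrending and no normalization between arrays. They also deposited log2 values, shifted to each array's 75th percentile, as a series matrix. The processed intensities were taken to log2, replicate spots were averaged per probe, and each array's 75th percentile over the 50238 probes was taken off. The software marked 57.5% to 72.8% of the probes per array as well above background, no member spot was saturated, and the number of arrays limits the precision. Within groups, arrays correlated at 0.962 to 0.99 across probes, and between groups at 0.939 to 0.984, so none was merged.

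Models of 8 group means were fitted with limma 3.58.1 in R 4.3.3, with the data.table package (version 1.17.8), and tested on simulated data first. Calls needed a 2-fold change (1 log2 unit) and a q of 0.05 at most. A gene's value is that of its brightest probe, and the F test used that probe alone. Interaction and comparisons were adjusted over the whole array. Named genes are all detected or called members, with values per array for detected members that were called and for COL8A1 and COL16A1. The members, the gene lists and these rules were chosen with earlier results of these data known. Alternatives were quantile normalization, normexp (offset 50), removal of dim probes, a floor of 20 on signals, the percentile taken over detected probes only, opposing probes kept, gene means of probes, the methods' t-test, eBayes with trend, slide and replicate blocks, the series matrix values and each array left out. The slide-blocked values per gene and the comparison within slide 1 were added after seeing the data. All 41 member names are current RefSeq symbols. Replicate numbers did not pair the samples: the correlation of same-numbered deviations was -0.11 to 0.09 over 8 pairs.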

Additional observations from a re-analysis of the deposited data

Results flagged for a closer look

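The effect of vit C differed between time points for 2 of 41 collagen chain genes, by the F test on the brightest probe, which 1.05% of all genes passed. For COL22A1 the q was 0.0101, and the differences between vit C-treated and UT cells ran from 1.29 log2 units at 8 h to -1.66 at 96 h. For COL24A1 the q was 0.0482, and the differences were -0.33, 1.38, 1.07 and 0.26 at 8, 24, 48 and 96 h. With the slide as a random block the q was 0.015 for COL22A1 and 0.0536 for COL24A1, which then missed the threshold. The slide could not be fitted as a fixed block here, since both vit C arrays of 96 h were alone on slide 4.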

How the results depend on the processing

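The number of collagen chain genes called at 96 h with vit C, 9, was 3 with quantile normalization or dim probes left out, 4 with normexp correction, the percentile over detected probes or the floor of 20, 5 with gene means of probes and 0 with the methods' t-test after adjustment. Normexp correction also left 0 calls at 24 h, 0 at 48 h and 0 for the average, and 5 over time in UT and 8 in vit C-treated cells, against 1, 2, 1, 10 and 22. The floor gave 1 call at 8 h, 0 for the average, 12 over time with vit C and 8 genes whose effect differed between time points, against 0, 1, 22 and 2. The series matrix values gave 1 call at 8 h, quantile normalization 4 genes whose effect differed, and the average over 8, 24 and 48 h 0 calls. The methods' t-test also gave 0 calls at 24 h, at 48 h and over time in UT cells. The slide as a fixed block left 0 calls at 24 h and 0 at 48 h, and as a random block 1 gene whose effect differed, COL22A1. Same-numbered arrays were not paired by the data, and a replicate block gave 4 calls at 96 h and 1 gene whose effect differed, and moved no other count by over 1.5 times. The slide block could not be fitted at 96 h, for the average, for vit C over time or for the F test, since slide and group coincide there.

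Leaving out 1 array at a time gave 0 to 2 calls at 24 h, 0 to 1 at 48 h, 1 to 14 at 96 h, 0 to 2 for the average, 7 to 10 over time in UT cells, 14 to 23 with vit C and 1 to 5 for the F test. At 96 h the count was 1 without vit C 96 h replicate 2, 2 without vit C 96 h replicate 1, 5 without UT 96 h replicate 2 and 14 without UT 96 h replicate 3. Where a group was left with 1 array, it was assumed to vary like the others. From 8 to 96 h with vit C, 3 called differences changed sign: COL17A1 was 0.0102 with quantile normalization, and COL19A1 was -0.0255 and COL1A1 -0.30 with normexp correction. All 3 were not well above background at 8 h, and the cause was not tested. The number of genes detected in at least 1 group, 31, was the same on the brightest probe alone, and 21 were detected in all 8 groups. Signal over background limits the 10 undetected members, for which these arrays give no level.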
